A study of Mus musculus with 12 samples.

Results

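The prostanoid genes described here were 10 of the 35275 genes in the deposited table: the cyclooxygenases Ptgs1 and Ptgs2, the terminal synthases Ptgis, Ptges and Ptgds, and the receptors Ptgir, Ptger1, Ptger3, Ptger4 and Tbxa2r. They were listed by gene name, with no threshold on a measured value. RNA-seq was carried out on the carotid arteries of 10-week-old C57BL/6 mice, in which RNA of the endothelial layer was flushed from the lumen with Qiazol and RNA of the left-over artery, called the medial layer, was extracted separately. The 4 groups were medial layer of Poldip2-/- mice, medial layer of littermate controls, endothelial layer of Poldip2-/- mice and endothelial layer of littermate controls. The labels list 4 medial samples and 2 endothelial samples of each genotype, 12 in all, whereas the design text gives 4 mice of each genotype for both layers. In Poldip2-/- mice, exon 4 of Poldip2 was missing in the whole body, through inherited excised alleles. The exon had been excised in earlier generations by a Cre deleter driven by EIIa, and backcrossing then removed the Cre transgene. The line goes back to 1 clone of embryonic stem cells. The medial layer held smooth muscle together with adventitia, so it was not a preparation of smooth muscle cells alone.

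Each gene has 1 value per group, in FPKM (fragments per kilobase of transcript after division by mapped depth, a level corrected for transcript length and sequencing depth). How the replicates were combined into that value is not stated in the sources used here. Columns of single samples carry animal numbers that the labels and methods do not tie to a genotype, so they were not used and the spread between replicates was not computed. For this reason no comparison below carries a test, an error or a p-value, and no difference between neighbouring levels can be set against replicate error. A difference was called past 2-fold when the log2 ratio of (FPKM + 1) between 2 groups was at least 1 in size, and it was taken only for genes whose mean FPKM over these groups was at least 1.

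Prostanoids are lipid signals made from arachidonic acid, which phospholipases release from membranes. The cyclooxygenases convert it to prostaglandin H2, and a terminal synthase then turns this intermediate into prostacyclin (Ptgis), prostaglandin E2 (Ptges) or prostaglandin D2 (Ptgds). The products leave the cell and act on G protein-coupled receptors nearby. In arteries prostacyclin is known as a product of endothelium and smooth muscle that relaxes the vessel and keeps platelets quiet, and thromboxane A2, acting on Tbxa2r, as a constrictor that activates platelets.

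RefSeq promoter windows were matched for 8 of the 10 genes. The 250 bases before the RefSeq start are shown for the genes whose medial levels differed past 2-fold between genotypes and for which a window was matched, all in the build GRCm38.p6, read 5′ to 3′ on the strand of the gene. Capitals mark GGGCGG or its reverse complement CCGCCC, the GC box. The windows are chr2:36230176-36230425 on the plus strand for Ptgs1, chr2:30903298-30903547 on the minus strand for Ptges, chr3:157566626-157566875 on the plus strand for Ptger3 and chr10:81328453-81328702 on the plus strand for Tbxa2r, the last being the nearer of its 2 matched windows to the deposited gene start. The window of Ptges lies inside the deposited gene, which begins farther upstream than the RefSeq start used.
Ptgs1: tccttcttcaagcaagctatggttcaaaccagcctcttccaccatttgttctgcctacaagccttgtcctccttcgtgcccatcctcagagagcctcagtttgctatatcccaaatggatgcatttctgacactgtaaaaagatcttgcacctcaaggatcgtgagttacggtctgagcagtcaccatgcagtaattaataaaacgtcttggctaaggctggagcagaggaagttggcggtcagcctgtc
Ptges: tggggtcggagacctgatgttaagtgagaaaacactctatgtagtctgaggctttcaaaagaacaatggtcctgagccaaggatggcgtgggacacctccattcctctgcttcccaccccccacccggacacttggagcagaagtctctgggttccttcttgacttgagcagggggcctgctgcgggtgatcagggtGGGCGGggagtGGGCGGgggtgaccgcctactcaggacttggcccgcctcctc
Ptger3: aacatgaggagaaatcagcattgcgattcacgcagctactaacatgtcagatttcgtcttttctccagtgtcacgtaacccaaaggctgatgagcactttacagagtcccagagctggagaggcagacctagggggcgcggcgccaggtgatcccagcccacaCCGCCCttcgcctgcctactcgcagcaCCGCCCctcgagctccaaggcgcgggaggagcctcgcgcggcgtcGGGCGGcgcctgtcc
Tbxa2r: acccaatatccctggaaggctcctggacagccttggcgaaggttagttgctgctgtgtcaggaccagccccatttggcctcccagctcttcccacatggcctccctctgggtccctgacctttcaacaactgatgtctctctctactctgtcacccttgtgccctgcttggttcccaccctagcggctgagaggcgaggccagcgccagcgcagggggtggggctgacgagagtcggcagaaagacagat

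The GC box did not follow the direction of the genes. The window of Ptges held 2 and that of Ptger3 held 3, while the window of Ptgs1, which like these was lower in the Poldip2-/- medial layer, and that of Tbxa2r, which was higher there, had 0 matches. Among the other matched genes, GC boxes numbered 1 in Ptgs2, 2 in Ptgir, 4 in Ptger4 and 0 in Ptgds. Over all 32851 RefSeq windows of the same length, 32.7% held at least 1 GC box on either strand. TATAAA was found on neither strand of any matched member window (12.4% of all windows), and neither was the CArG box, the element bound by serum response factor (1.47% of all windows).

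Poldip2 itself was listed at 10.3 FPKM in the Poldip2-/- medial layer and 35.9 FPKM in the control medial layer, and at 8.27 FPKM in the Poldip2-/- endothelial layer and 21.1 FPKM in the control endothelial layer. Its log2 ratio of Poldip2-/- over control was -1.71 in the medial and -1.25 in the endothelial layer, in the direction of the labels. The FPKM covers the whole gene, of which only exon 4 was removed. The layers carried their markers: the 5 endothelial markers (Pecam1, Vwf, Icam2, Nos3, Cdh5) had in the medial layer 1.54% to 2.62% of their endothelial level in Poldip2-/- mice and 2.63% to 5.74% in controls, and the 5 smooth muscle markers (Acta2, Tagln, Myh11, Cnn1, Lmod1) had in the endothelial layer 0.33% to 2.97% of their medial level in Poldip2-/- mice and 0.92% to 2.80% in controls. No marker of these lists was at 0 in either layer. As a guide to the lowest levels, the 95th percentile of 1248 olfactory receptor genes was 0.0136 FPKM in the Poldip2-/- medial layer, 1.56 FPKM in the control medial layer, 0.0684 FPKM in the Poldip2-/- endothelial layer and 0.325 FPKM in the control endothelial layer. The share of these genes listed above 0 differed between genotypes as well, at 7.05% in the Poldip2-/- and 92.5% in the control medial layer, and at 27.2% in the Poldip2-/- and 69.2% in the control endothelial layer. Low genes that were lower in Poldip2-/- mice differed in the same direction as this background, and its part in them was not tested.

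In the medial layer, the prostanoid genes split by direction. Ptgis and Tbxa2r were past 2-fold higher in Poldip2-/- mice, and Ptgs1, Ptges and Ptger3 were past 2-fold lower. In RNA from whole tissue, fewer cells of a type and less RNA per cell cannot be told apart. Of the 9 members with a mean of at least 1 FPKM (Ptgds was below it), these were 2 higher and 3 lower, against 7.22% and 14.3% of the 13082 genes compared in that layer (21.6% in either direction). The members' median log2 ratio was 0.06, beside -0.17 over all genes compared, whose quartiles were -0.62 and 0.27. Among endothelial values 0 of 6 members with enough signal were past 2-fold, where 1.88% of 11514 genes were (0.434% higher, 1.44% lower), and the 6 ratios lay between -0.35 and 0.32.

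**Figure D1:**
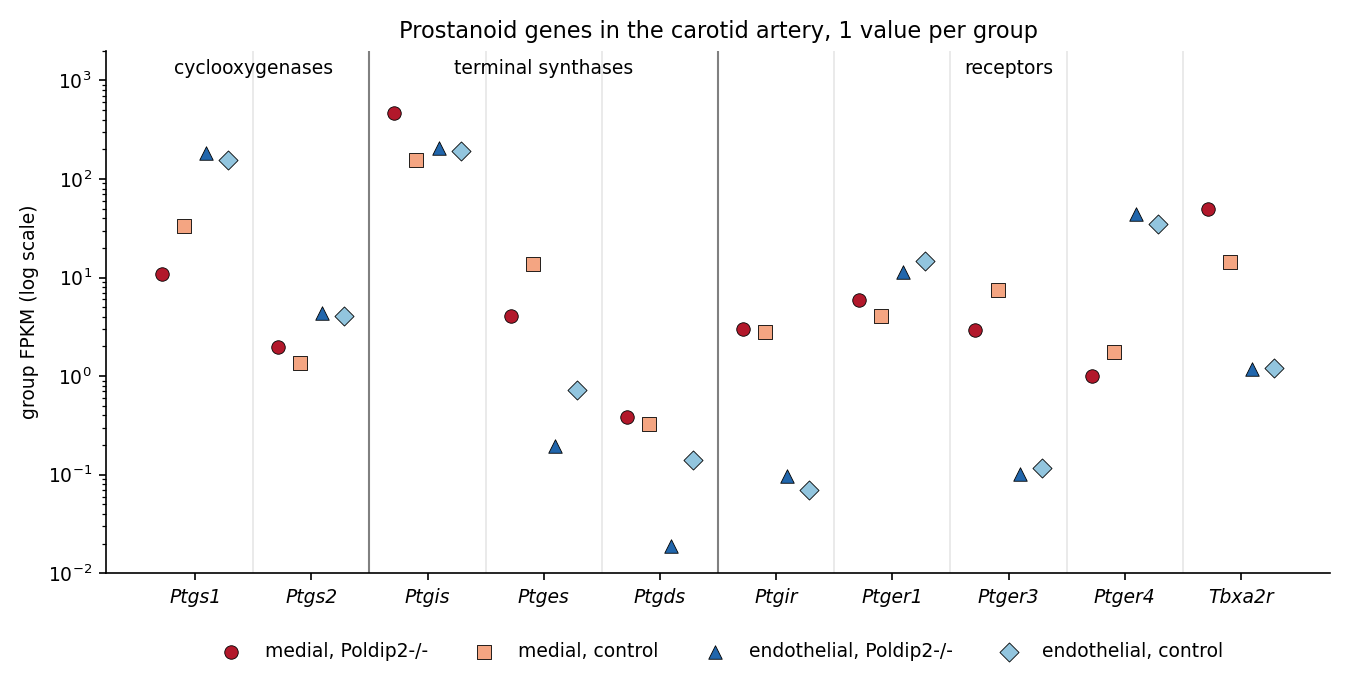
Level of each prostanoid gene in the 4 groups, in FPKM on a log axis, with 1 deposited value per group and no error bar because the spread between replicates was not computed. Ptgs1 and Ptger4 stand highest in the endothelial groups, Tbxa2r, Ptges, Ptger3 and Ptgir in the medial groups, and Ptgis lies between 155 and 467 FPKM.

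Ptgs1, the constitutive cyclooxygenase and the form of platelets (ENSMUSG00000047250, GRCm38 chromosome 2, 36230426 to 36252272, plus strand), was listed at 10.9 FPKM in the Poldip2-/- medial layer and 33.2 FPKM in the control medial layer. The level was 3.04-fold lower in Poldip2-/- mice, a log2 ratio of -1.52, at percentile 7.32 of the genes compared. The endothelial value was 183 FPKM in Poldip2-/- mice and 154 FPKM in controls, a log2 ratio of 0.24. The gene was thus lower in the Poldip2-/- group in one layer and slightly higher in the other. The medial ratio minus the endothelial ratio was -1.76, where 8.75% of the 10920 genes compared in both layers had a difference of -1 or below.

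Ptgs2, the inducible cyclooxygenase (ENSMUSG00000032487, chromosome 1, 150100031 to 150108227, plus strand), was low throughout. It had 1.96 FPKM in the Poldip2-/- medial layer and 1.37 FPKM in the control medial layer, the control value being no higher than the 95th percentile of olfactory receptor genes there. Endothelial RNA held 4.40 FPKM in Poldip2-/- mice and 4.03 FPKM in controls. Neither log2 ratio (0.32 medial, 0.10 endothelial) passed 2-fold. Ptgs1 exceeded Ptgs2 per transcript length in every group, by 5.56-fold in the Poldip2-/- medial layer against 24.3-fold in the control medial layer, and by 41.5-fold in the Poldip2-/- endothelial layer against 38.3-fold in the control endothelial layer. As a share of the summed FPKM of both cyclooxygenases, Ptgs1 made up 84.8% in the Poldip2-/- medial layer, 96.0% in the control medial layer, 97.6% in the Poldip2-/- endothelial layer and 97.5% in the control endothelial layer. With Ptgs2 no higher than that percentile in the control medial layer, the fold and the share there are lower limits.

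Ptgis, prostacyclin synthase (ENSMUSG00000017969, chromosome 2, 167191805 to 167240604, minus strand), was the most abundant member in every group. Its level was 467 FPKM in the Poldip2-/- medial layer and 155 FPKM in the control medial layer, so it was 3.02-fold higher in Poldip2-/- mice with a log2 ratio of 1.59. Only 0.436% of protein-coding genes had a higher FPKM in the Poldip2-/- medial layer, against 2.21% in the control medial layer. The endothelial level was 207.5 FPKM in Poldip2-/- mice and 192.5 FPKM in controls, a log2 ratio of 0.11. The 2 layers thus differed in the genotype ratio by 1.48 on the log2 scale, and 7.23% of all genes compared in both layers reached a difference of 1. Strand use is not given in the sources used here, and 6.08% of the exon bases of Ptgis overlap an opposite-strand transcript, 1110018N20Rik, listed at 0.425 FPKM in the Poldip2-/- medial layer and 0.298 FPKM in the control medial layer.

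Ptges, the inducible membrane-bound prostaglandin E synthase (ENSMUSG00000050737, chromosome 2, 30889471 to 30929863, minus strand), went the other way. It had 4.09 FPKM in the Poldip2-/- medial layer and 13.6 FPKM in the control medial layer, 3.33-fold lower in Poldip2-/- mice with a log2 ratio of -1.52. Endothelial Ptges was at 0.195 FPKM in Poldip2-/- mice and 0.718 FPKM in controls, under the minimum for a comparison. The relative levels of the terminal synthases therefore differed between genotypes in the medial layer: Ptgis stood 114-fold above Ptges in Poldip2-/- mice and 11.4-fold above it in controls. Ptgis also stood 42.8-fold above Ptgs1 in the Poldip2-/- medial layer and 4.66-fold above it in the control medial layer, while in the endothelial layer these 2 genes were close, at 1.14-fold in Poldip2-/- mice and 1.25-fold in controls.

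Ptgds, the lipocalin-type prostaglandin D synthase (ENSMUSG00000015090, chromosome 2, 25466709 to 25470046, minus strand), was barely listed. Its values were 0.381 FPKM in the Poldip2-/- medial layer, 0.329 FPKM in the control medial layer, 0.0191 FPKM in the Poldip2-/- endothelial layer and 0.140 FPKM in the control endothelial layer. All but the first were no higher than the 95th percentile of olfactory receptor genes in the same group, so no level could be told from that background in those 3 groups. Ptgis alone made up 99.1% of the summed FPKM of the 3 member synthases in the Poldip2-/- medial layer and 91.7% in the control medial layer. This sum leaves out other synthases. Among these, Ptges3 was at 96.3 FPKM in the Poldip2-/- medial layer and 102 FPKM in the control medial layer.

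**Figure D2:**
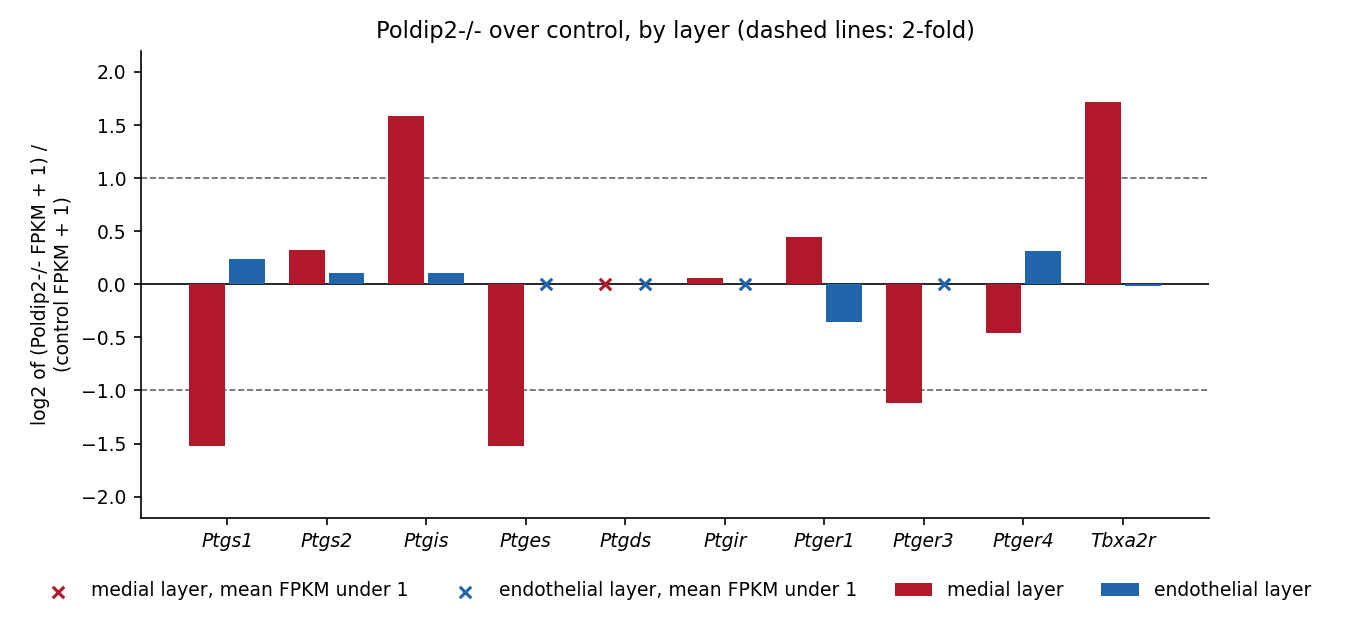
Log2 ratio of Poldip2-/- over control for each prostanoid gene, on the log2(FPKM + 1) scale, with medial bars left of endothelial bars, crosses where the mean FPKM was under 1, and dashed lines at 2-fold. The medial bars of Ptgis (1.59) and Tbxa2r (1.72) lie above the upper line, those of Ptgs1 (-1.52), Ptges (-1.52) and Ptger3 (-1.11) below the lower one, and no endothelial bar reaches either.

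Among the 5 member receptors, Tbxa2r, which binds thromboxane A2 and also prostaglandin H2 (ENSMUSG00000034881, chromosome 10, 81328732 to 81335171, plus strand), had the highest medial level. It was listed at 50.05 FPKM in the Poldip2-/- medial layer and 14.5 FPKM in the control medial layer. The 3.45-fold higher level in Poldip2-/- mice gave a log2 ratio of 1.72, at percentile 97.7 of all genes compared. Endothelial Tbxa2r was at 1.2 FPKM in Poldip2-/- mice as well as in controls, a log2 ratio of -0.02. Of the FPKM summed over these 5 receptors, Tbxa2r took 79.6% in the Poldip2-/- medial layer and 47.3% in the control medial layer. This sum leaves out Ptgfr, at 5.67 FPKM in the Poldip2-/- medial layer. In the control medial layer Ptgfr was at 15.4 FPKM, slightly above Tbxa2r.

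Ptgir, the prostacyclin receptor, which couples to cyclic AMP formation (ENSMUSG00000043017, chromosome 7, 16906490 to 16910905, plus strand), was at nearly the same medial level in both genotypes. It had 2.98 FPKM in Poldip2-/- mice and 2.81 FPKM in controls, a log2 ratio of 0.06. The endothelial values were 0.0970 FPKM in Poldip2-/- mice and 0.0706 FPKM in controls, the control value lying within the olfactory receptor background. With Ptgir level and Tbxa2r higher, Tbxa2r exceeded Ptgir by 16.8-fold in the Poldip2-/- medial layer, against 5.17-fold in the control medial layer.

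The prostaglandin E2 receptors did not share a direction. Ptger3, the receptor that lowers cyclic AMP through Gi (ENSMUSG00000040016, chromosome 3, 157566892 to 157644758, plus strand), had 2.94 FPKM in the Poldip2-/- medial layer and 7.53 FPKM in the control medial layer. It was 2.56-fold lower in Poldip2-/- mice, with a log2 ratio of -1.11. This call was the nearest to the 2-fold line: relative to the median of all genes the ratio was -0.95, and relative to genes of like length -0.86, both short of 2-fold. Endothelial Ptger3 was at 0.101 FPKM in Poldip2-/- mice and 0.117 FPKM in controls, too low to compare.

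Ptger4, which raises cyclic AMP through Gs (ENSMUSG00000039942, chromosome 15, 5206661 to 5244187, minus strand), was a gene of the endothelial layer. It was listed at 1.00 FPKM in the Poldip2-/- medial layer and 1.75 FPKM in the control medial layer, and at 43.9 FPKM in the Poldip2-/- endothelial layer and 35.1 FPKM in the control endothelial layer. The log2 ratios of Poldip2-/- over control, -0.46 in the medial and 0.32 in the endothelial layer, were short of 2-fold. The control medial value stood little above the 95th percentile of olfactory receptor genes in that group, 1.56 FPKM. Ptger4 made up 77.6% of the summed receptor FPKM in the Poldip2-/- endothelial layer and 68.6% in the control endothelial layer.

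Ptger1, which signals through calcium (ENSMUSG00000019464, chromosome 8, 83666833 to 83672753, plus strand), had 5.90 FPKM in the Poldip2-/- medial layer and 4.06 FPKM in the control medial layer. Endothelial RNA had 11.3 FPKM in Poldip2-/- mice and 14.6 FPKM in controls. The log2 ratios of 0.45 and -0.35 were short of 2-fold. These values are uncertain, because strand use is not given in the sources used here.

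Between layers, the members fell on both sides. In Poldip2-/- mice 5 of 9 were past 2-fold higher in medial than in endothelial RNA (Ptgis, Ptges, Ptgir, Ptger3, Tbxa2r) and 2 were lower (Ptgs1, Ptger4), where 14.1% and 13.3% of 12140 genes were (27.4% in either direction). In controls 4 were higher in the medial layer (Ptges, Ptgir, Ptger3, Tbxa2r) and 4 lower (Ptgs1, Ptgs2, Ptger1, Ptger4), where 20.2% and 12.1% of 13354 genes were (32.3% in either direction). These comparisons use the same 4 group values as those between genotypes.

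In Poldip2-/- mice the layers stood farthest apart for Tbxa2r and Ptger4. The medial level of Tbxa2r exceeded the endothelial one 42.3-fold in Poldip2-/- mice and 12-fold in controls, log2 ratios of 4.55 and 2.81. Ptger4 in the medial layer reached 2.27% of its endothelial level in Poldip2-/- mice and 5.0% in controls, inside the ranges of the 5 endothelial markers in both genotypes. Ptgs1 in the medial layer reached 5.99% of its endothelial level in Poldip2-/- mice and 21.5% in controls, above those ranges in both genotypes. Of the medial genes, Ptgir in the endothelial layer had 3.26% of its medial level in Poldip2-/- mice and 2.51% in controls, Ptger3 had 3.44% in Poldip2-/- mice and 1.56% in controls, and Ptges had 4.78% in Poldip2-/- mice and 5.28% in controls. The control endothelial values of Ptgir and Ptger3 were no higher than the 95th percentile of olfactory receptor genes, so their control percentages are upper limits. The control medial value of Ptger4 stood little above that percentile in its own group. The endothelial level of Tbxa2r was 2.37% of the medial one in Poldip2-/- mice, within the range of the smooth muscle markers, and 8.34% in controls, above it.

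Ptgis, Ptger1 and Ptgs2 were nearer to an equal level in both layers. Ptgis reached 225% of its endothelial level in the medial layer of Poldip2-/- mice (log2 ratio 1.17) and 80.4% in that of controls (log2 ratio -0.31). Ptger1 in the medial layer reached 52.4% of its endothelial level in Poldip2-/- mice and 27.7% in controls, and Ptgs2 reached 44.6% in Poldip2-/- mice and 34.0% in controls. The medial over endothelial log2 ratio of Ptger1 was -0.83 in Poldip2-/- mice and -1.63 in controls, and that of Ptgs2 was -0.87 in Poldip2-/- mice and -1.09 in controls. On this scale both genes were just inside 2-fold in Poldip2-/- mice and past it in controls. Without the added 1, the FPKM of Ptgs2 in Poldip2-/- mice was 2.24-fold lower in the medial layer. The control medial value of Ptgs2 was no higher than the 95th percentile of olfactory receptor genes, so its 34.0% is an upper limit.

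**Figure D3:**
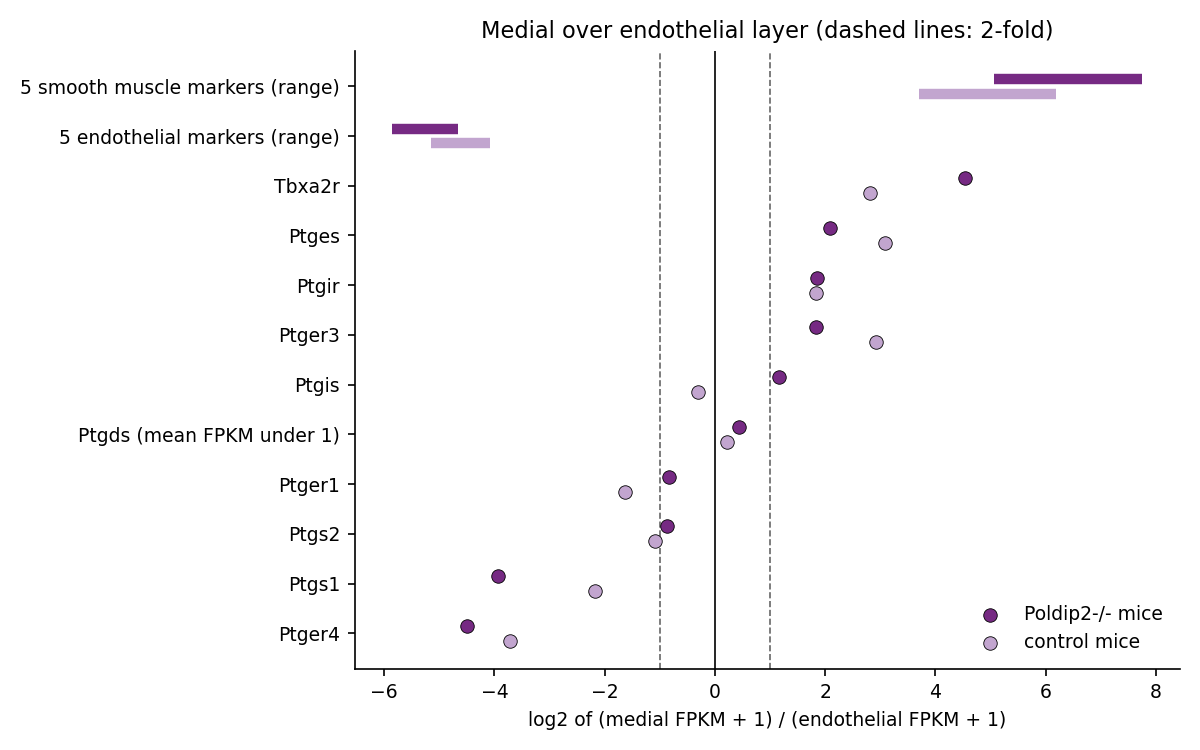
Log2 ratio of the medial over the endothelial layer for each prostanoid gene, on the log2(FPKM + 1) scale, with Poldip2-/- mice drawn above controls and bars for the ranges of 5 smooth muscle and 5 endothelial markers. Tbxa2r lies farthest to the medial side in Poldip2-/- mice (4.55), Ptger4 (-4.49) and Ptgs1 (-3.94) farthest to the endothelial side, and Ptgis changes side between Poldip2-/- mice (1.17) and controls (-0.31).

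Markers of several cell types differed between genotypes along with these genes. In the medial layer, all 5 smooth muscle markers were past 2-fold higher, with summed FPKM of 19904 in Poldip2-/- mice and 5250 in controls and a median log2 ratio of 1.99. All 5 fibroblast markers were past 2-fold lower (summed FPKM 1107 in Poldip2-/- mice and 3987 in controls), as were 6 of 7 leukocyte markers (590.1 in Poldip2-/- mice and 2950 in controls), all 5 fat cell markers (463 in Poldip2-/- mice and 2202 in controls), all 4 mast cell markers compared (17.9 in Poldip2-/- mice and 71.9 in controls), 2 of 4 platelet markers (184 in Poldip2-/- mice and 683 in controls) and 3 of 5 red blood cell markers (972 in Poldip2-/- mice and 2308 in controls). The platelet sums were almost wholly Pf4, at 181 FPKM in Poldip2-/- mice and 674 FPKM in controls. Ppbp, the other platelet marker called lower, was at 0.470 FPKM in Poldip2-/- mice and 3.21 FPKM in controls. Gp1bb was nearly level, at 1.70 FPKM in Poldip2-/- mice and 1.63 FPKM in controls. Of the 5 endothelial markers, 1 was past 2-fold lower, with summed FPKM of 65.1 in Poldip2-/- mice and 118 in controls. Tbxa2r and Ptgis thus differed in the direction of the smooth muscle markers, and Ptgs1, Ptges and Ptger3 in that of the other lists. The part of these lists in the differences of the prostanoid genes was not tested. In the endothelial layer, where no member passed 2-fold, 3 of 4 smooth muscle markers were past 2-fold higher (summed FPKM 431 in Poldip2-/- mice and 140 in controls), 5 of 5 fibroblast markers past 2-fold lower (53.3 in Poldip2-/- mice and 178 in controls), and 0 of 5 endothelial (3322 in Poldip2-/- mice and 3121 in controls) and 0 of 5 leukocyte markers called.

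In the rest of the pathway, the genes past 2-fold in the medial layer were lower in Poldip2-/- mice, with 1 exception. Of 33 other genes of prostanoid formation, reception, transport and breakdown, 25 could be compared in the medial layer, with 1 past 2-fold higher, 10 past 2-fold lower and 14 between, and a median log2 ratio of -0.54, beside 7.22% higher, 14.3% lower and a median of -0.17 over all genes compared. Among endothelial values 18 could be compared, with 0 higher, 1 lower and 17 between, and a median of 0.16, beside 0.05 over all genes. The one higher gene was Ptges3l, named for its likeness to a prostaglandin E synthase, at 4.61 FPKM in the Poldip2-/- medial layer and 1.32 FPKM in the control medial layer.

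Upstream of the cyclooxygenases, Pla2g4a, the cytosolic phospholipase that releases arachidonic acid, was nearly level at 23.5 FPKM in the Poldip2-/- medial layer and 24.6 FPKM in the control medial layer. The secreted phospholipases Pla2g2d and Pla2g10 were lower, with 4.57 and 0.0283 FPKM in the Poldip2-/- medial layer against 11.8 and 2.30 FPKM in the control medial layer. The control value of Pla2g10 stood little above the 95th percentile of olfactory receptor genes in that group, 1.56 FPKM. Pla2g5, another secreted phospholipase, belonged to the endothelial layer, with 28.6 FPKM in Poldip2-/- mice and 17.0 FPKM in controls, a log2 ratio of 0.71 that was short of 2-fold.

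Among the other synthases, Tbxas1, thromboxane A synthase, was at 3.24 FPKM in the Poldip2-/- medial layer and 9.98 FPKM in the control medial layer, a log2 ratio of -1.37. The gene that makes the ligand of Tbxa2r thus had the opposite sign to the receptor in that layer. Hpgds, the hematopoietic prostaglandin D synthase, was at 1.53 FPKM in Poldip2-/- mice and 4.09 FPKM in controls (log2 ratio -1.01), and the carbonyl reductases Cbr1 and Cbr3, of which Cbr1 can convert prostaglandin E2 to F2α, had log2 ratios of -1.15 and -1.36. Fam213b, a prostaglandin F synthase, was at 10.1 FPKM in Poldip2-/- mice and 23.7 FPKM in controls (log2 ratio -1.15). Akr1c18, a steroid dehydrogenase that also forms prostaglandin F2α, was past 2-fold lower in both layers, with 1.67 FPKM in the Poldip2-/- medial layer against 20.1 FPKM in the control medial layer and 0.263 FPKM in the Poldip2-/- endothelial layer against 2.49 FPKM in the control endothelial layer. Ptges3, a cytosolic prostaglandin E synthase that is also a co-chaperone, was the most abundant of these other genes and nearly level, at 96.3 FPKM in the Poldip2-/- medial layer and 102 FPKM in the control medial layer.

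Ptgfr, the prostaglandin F2α receptor, was at 5.67 FPKM in the Poldip2-/- medial layer and 15.4 FPKM in the control medial layer, a log2 ratio of -1.30. The receptor genes Ptger2, Ptgdr and Ptgdr2 were at 0.159 FPKM or lower in all 4 groups. Hpgd, the dehydrogenase that begins the breakdown of prostaglandins, was at 11.0 FPKM in the Poldip2-/- medial layer and 46.7 FPKM in the control medial layer, a log2 ratio of -1.99. It was level in the endothelial layer, at 3.25 FPKM in Poldip2-/- mice and 3.11 FPKM in controls. The uptake transporter Slco2a1 was a gene of the endothelial layer, with 97.6 FPKM in Poldip2-/- mice and 81.4 FPKM in controls.

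**Figure D4:**
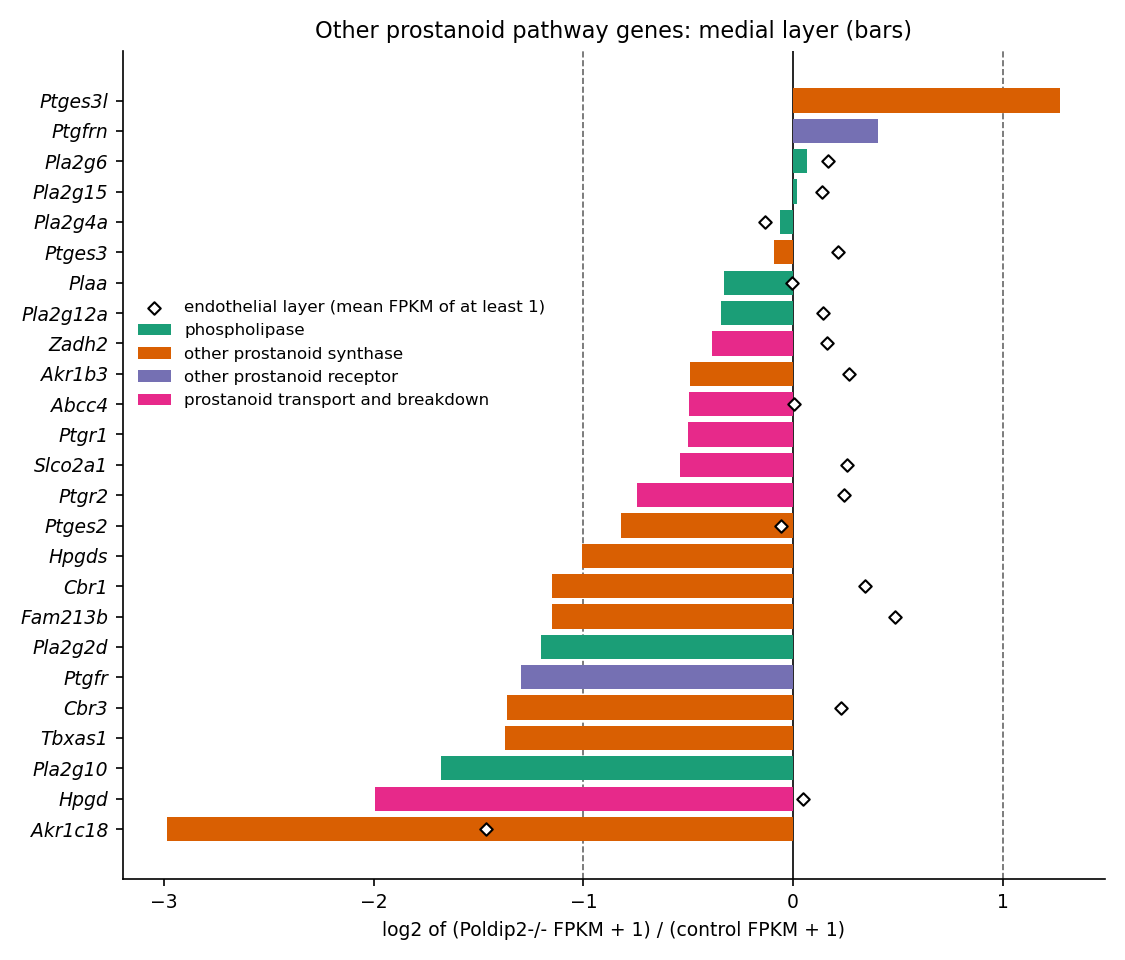
Log2 ratio of Poldip2-/- over control for the 25 other prostanoid pathway genes with a mean of at least 1 FPKM in the medial layer (bars, coloured by list), with the endothelial ratio as a diamond where it could be taken. Akr1c18 (-2.98) and Hpgd (-1.99) lie lowest in the medial layer, Ptges3l (1.27) is the single bar past the upper 2-fold line, and apart from Akr1c18 (-1.47) the endothelial diamonds lie within 2-fold.

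The genes whose levels over the 4 groups were most like those of each member were found by the distance between their centred log2(FPKM + 1) values, over genes with a mean of at least 5 FPKM. With 4 values a gene this is a description only. Nearest to Ptgis was Pdlim1 (distance 0.11), at 163 FPKM in the Poldip2-/- medial layer, 51.7 FPKM in the control medial layer, 71.7 FPKM in the Poldip2-/- endothelial layer and 71.4 FPKM in the control endothelial layer. Nearest to Ptgs1 was Sp100 (0.17), to Ptges was Syk (0.12), to Ptger3 was Wfdc17 (0.06), to Ptger4 was Cxcl1 (0.16) and to Tbxa2r were Xirp1 and Optc (0.19 each). Within a distance of 0.5 lay 27 of 8427 genes for Ptgs1, 29 for Tbxa2r, 32 for Ptger3, 39 for Ptges, 42 for Ptger4, 57 for Ptgir, 78 for Ptgis, 298 for Ptger1 and 836 for Ptgs2.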

How the data were processed

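RNA was purified from the flushed endothelial fraction and the left-over artery, and libraries were made with a NEBNext Ultra kit after poly-T enrichment. Per the study's methods, the authors mapped paired reads to mm9 with TopHat and deposited levels as FPKM, 1 value per group. HTSeq 0.6.1, STAR 2.5 and edgeR 3.16.5 are also named in the submitters' notes, with no role given. The gene coordinates deposited were nevertheless those of GRCm38: of 34490 shared identifiers, 24932 (72.3%) had exactly the GENCODE M21 start and end. The authors also deposited group mean counts scaled for depth, used here only as an alternative scale, and gene lengths. The columns of fold changes, p-values and adjusted p-values for 6 comparisons are the authors' own results and were not used. Another 24 columns of single samples, under animal numbers that no source used here ties to a genotype, were not used either, so library depth, replicate spread and intervals were not computed.

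Log2 ratios of (FPKM + 1) were taken for 4 comparisons, over genes with a mean of at least 1 FPKM in the 2 groups, with Python 3.11.15, numpy 2.4.6 and pandas 2.3.3. A check beforehand put known fold changes without noise into the group values, so it covered the arithmetic of the calls only. A ratio of (FPKM + 1) understates the change of low genes. All genes with ratios past 2-fold are counted as called. Alternatives were a pseudocount of 0.1, no minimum, a 1.5-fold threshold, the scaled counts, centring on the median or within 20 bins of gene length, and protein-coding genes only. Genes named are the members, other pathway genes past 2-fold or most abundant, and the nearest genes in pattern. Pla2g4a, Pla2g5, Ptger2, Ptgdr, Ptgdr2 and the genes acting below the receptors fall outside this rule and were named after their values were seen. Overlaps between exons are from GENCODE M21 and promoter windows from RefSeq (GRCm38.p6). The members and gene lists were chosen with earlier results of these data known.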

Additional observations from a re-analysis of the deposited data

How the results depend on the processing

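No paired analysis was possible because the columns used give 1 value per group and the single-sample columns could not be tied to a genotype, and leaving out a replicate was not run for the same reason. No compared value of a member changed sign under these alternatives other than endothelial Ptgis, whose Poldip2-/- over control log2 ratio was 0.11 and -0.03 within length bins, and Ptgs1, Ptges, Ptgis and Tbxa2r kept their medial calls under all 7. Ptger3 fell short of 2-fold in the medial layer after centring on the median (-0.95) or within length bins (-0.86). At 1.5-fold, 4 members in place of 2 were lower in the medial than the endothelial layer of Poldip2-/- mice, Ptgs2 (-0.87) and Ptger1 (-0.83) being added, and Ptgs2 also passed 2-fold with a pseudocount of 0.1 (-1.12) and on scaled counts (-1.06). In controls Ptgs2 fell short within length bins (-0.72). The medial minus endothelial difference passed the threshold for Ptger1 on scaled counts (1.11), after centring (1.01) and at 1.5-fold (0.80), and for Ptger4 with a pseudocount of 0.1 (-1.08) and at 1.5-fold (-0.78). Other values of single members and of layer differences stayed on their side of the threshold. Counts of members changed with these calls, to 2 from 3 lower in the medial layer under either centring, to 3 from 2 lower between the layers of Poldip2-/- mice with a pseudocount of 0.1 or on scaled counts, and to 3 from 4 lower between the layers of controls within length bins.

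Over all genes, scaling moved the balance of calls. In the medial layer 33.5% of calls were higher in Poldip2-/- mice (944 higher, 1877 lower), against 47.0% on scaled counts (1750 higher, 1971 lower), 45.2% after median centring, 51.0% within length bins (1243 higher, 1194 lower) and 22.5% with no minimum (967 higher, 3325 lower), with a median log2 ratio of -0.17 on FPKM and 0.03 on scaled counts. In controls the share higher in the medial layer was 62.6%, against 43.1% on scaled counts (2537 higher, 3354 lower), with medians of 0.10 and -0.30. At 1.5-fold the medial calls numbered 1885 higher and 3437 lower. In the endothelial layer 50 higher and 166 lower calls became 94 and 253 with a pseudocount of 0.1, 100 and 260 on scaled counts, and 191 and 396 at 1.5-fold. Between layers, calls at 1.5-fold numbered 3019 lower in Poldip2-/- mice (1617 at 2-fold), and in controls 4198 higher (2704 at 2-fold) and 2928 lower (1613 at 2-fold).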

Other observations

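Of 13 genes of the leukotriene and lipoxygenase branch, which uses the same arachidonic acid, 6 could be compared in the medial layer, with 0 higher and 3 lower and a median log2 ratio of -1.26, beside 7.22% higher, 14.3% lower and a median of -0.17 over all genes compared. Alox5, the first enzyme of leukotriene formation, was at 3.50 FPKM in the Poldip2-/- medial layer and 14.7 FPKM in the control medial layer, and Alox5ap, its activating protein, at 15.5 FPKM in Poldip2-/- mice and 62.0 FPKM in controls. Alox15, a lipoxygenase of macrophages and eosinophils, was at 0.0760 FPKM in Poldip2-/- mice and 12.5 FPKM in controls. Lta4h, which makes leukotriene B4, was within 2-fold, at 33.3 FPKM in Poldip2-/- mice and 40.9 FPKM in controls. Of the endothelial values, 0 of 3 were called, beside 1.88% over all genes.

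Among genes that act below the prostanoid receptors, 4 of 14 gene identifiers compared, of which 2 carry the symbol Pde4d, were past 2-fold higher in the Poldip2-/- medial layer and 2 were lower, beside 7.22% higher and 14.3% lower over all genes. Adcy5, an adenylyl cyclase, was at 70.0 FPKM in Poldip2-/- mice and 10.7 FPKM in controls, a log2 ratio of 2.60, and Adcy6 at 5.97 FPKM in Poldip2-/- mice and 1.82 FPKM in controls. The phosphodiesterases that degrade cyclic AMP did not share a direction: Pde3a was at 18.3 FPKM in Poldip2-/- mice and 5.65 FPKM in controls, Pde4b at 26.4 FPKM in Poldip2-/- mice and 10.1 FPKM in controls, and Pde3b at 2.95 FPKM in Poldip2-/- mice and 7.97 FPKM in controls. Gna12, a G protein subunit that Tbxa2r can use, was at 9.94 FPKM in Poldip2-/- mice and 28.8 FPKM in controls. Of the endothelial values, 0 of 13 were called, beside 1.88% over all genes compared in the endothelial layer.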
